A study of Mus musculus with 6 samples.

Results

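The comparison is between stimulated natural regulatory T cells (nTregs) of YAP cKO mice and of wild type (WT) mice, read from 1 total RNA library of each genotype. Genes with 1 or more FPKM, a count of fragments corrected for transcript length and library size, in either of these libraries were compared, which kept 11079 of the 23877 named genes in the table. The measure is the difference of log2(FPKM + 1), cKO minus WT, called the log2 difference here. It understates the fold of genes with few FPKM. With 1 library a genotype there is no replicate error and no test, so each difference is a difference between these 2 libraries and may be one between mice or preparations.

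Natural Tregs are CD4 T cells that leave the thymus expressing the transcription factor FOXP3, bind IL-2 through a high level of CD25, and restrain other T cells. Engagement of the T cell receptor together with IL-2 takes them into the cell cycle and into an effector state, in which some acquire programs shared with helper lineages. YAP is a co-activator of the Hippo pathway: when the kinases MST and LATS are inactive it enters the nucleus and binds TEAD factors, and in Tregs it has been tied to activin and TGF-beta signalling.

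Both groups came from C57BL/6 mice, from lymph nodes and spleens, as sorted CD4+ CD62L+/- CD25HIGH cells. The cKO animals were YAP flox/flox,CD4-Cre+, in which Cre under the Cd4 promoter recombines in all αβ T cells during thymic development and not in Tregs alone. The WT genotype is given without a Cre or floxed allele. Both groups were stimulated with anti-CD3 coated on the plate and anti-CD28 in solution, each at 2 µg/ml, in the presence of 100 U/ml of IL-2. The labels disagree on how long: 24 h in one protocol text and 48 h in another. The age and sex of the mice, and how many stand behind a library, are not given in the labels. The other 4 libraries of the series, WT and cKO naive CD4+ CD62L+ CD25- T cells and WT and cKO freshly sorted nTregs, are given beside the stimulated pair as levels.

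The stimulated libraries carried signs that set them apart from the other 4. Of 1245 olfactory and vomeronasal receptor genes listed at 0 in the naive and freshly sorted libraries, 68.9% were above 0 in the WT stimulated library and 59.2% in the cKO stimulated library, with a mean of 0.218 and 0.125 FPKM. These receptors belong to sensory neurons. Fewer genes had a value of 0 after stimulation, 4056 for WT and 4809 for cKO, against 9036 to 10071 in the others. A level under about 1 FPKM in a stimulated library is therefore not read as expression here: 16 of the 1245 receptor genes reached 1 FPKM in the WT library and 0 in the cKO library. From the steps between low values, a 2 kb transcript at 5 FPKM had about 68.7 fragments behind it in WT and 88.8 in cKO. The FPKM sums were 534180 in the WT and 595410 in the cKO library, against 837040 to 968820 in the other 4. Levels before and after stimulation are set side by side below as deposited, without rescaling between populations. Intervals on ratios below are 95% exact intervals from these estimated fragments, for genes with 1 transcript, and cover counting error only.

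The targeted gene did not separate the genotypes. Yap1 (chromosome 9, 7931999 to 8004638, mm10) was listed at 0 in both naive and both fresh libraries, at 0.169 FPKM in the WT stimulated library and at 0.235 FPKM in the library labelled cKO. Those levels stand on about 4.79 and 8.60 fragments. In the WT library 56.9% of the receptor genes lay above the Yap1 level, and in the cKO library 23.4%. The table gives no exon levels, so Yap1 checks neither the deletion nor the labels, and every direction below rests on the column names.

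The defining markers of the labelled cell type were present. Foxp3, the lineage factor, was at 2.98 and 3.30 FPKM in the naive pair (WT first), 46.6 and 45.9 in the fresh pair, and 56.9 and 57.8 after stimulation. Il2ra, which encodes CD25, was at 0.486 and 1.23 FPKM in the naive pair, 75.3 and 63.7 in the fresh pair, and 295 and 285 after stimulation. Both genes separated the nTreg libraries from the naive ones and lay close together in the stimulated pair, with log2 differences of 0.02 and -0.05. Few markers of other cell types reached 1 FPKM, and some of those that did were abundant. Of 14 B cell markers 3 reached 1 FPKM in the stimulated pair, of 16 myeloid markers found 4 did, of 2 CD8 markers 1 did (Cd8b1, 3.23 in WT and 3.75 in cKO), and of 11 erythroid and platelet markers 0 did. The myeloid marker Cst3 was at 39.2 FPKM in WT and 51.2 in cKO. Of the stromal and endothelial markers 3 reached 1 FPKM: Vim at 684 and 975, Pecam1 at 38.1 and 33.3, and Epcam at 19.0 and 24.7. In bulk RNA, fewer cells of a type and less RNA per cell cannot be told apart.

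Across the 11079 genes, 129 (1.16%) were at least 2-fold higher in the cKO library and 77 (0.695%) at least 2-fold lower, together 1.86%. With both libraries scaled to an equal FPKM sum 90 genes were 2-fold higher and 108 lower, and the median difference was -0.11 in place of 0.04. At 1.5-fold, 566 genes (5.11%) were higher and 323 (2.92%) lower. The interquartile range of all differences was 0.369 on the log2 scale, against 0.229 between the freshly sorted libraries and 0.216 between the naive ones. The lower genes were the less abundant: 35 of the 77 reached 5 FPKM in 1 of the libraries, against 110 of the 129 higher genes. Of the 77 lower genes 30 were under 0.1 FPKM in all 4 unstimulated libraries, as the receptor genes are, 8 of which reached 5 FPKM after stimulation, and 38 of the 77 were listed at 0 in the cKO library. Scaling to an equal FPKM sum also lowers the medians of the gene lists, and counts under it are given beside several of them.

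**Figure D1:**
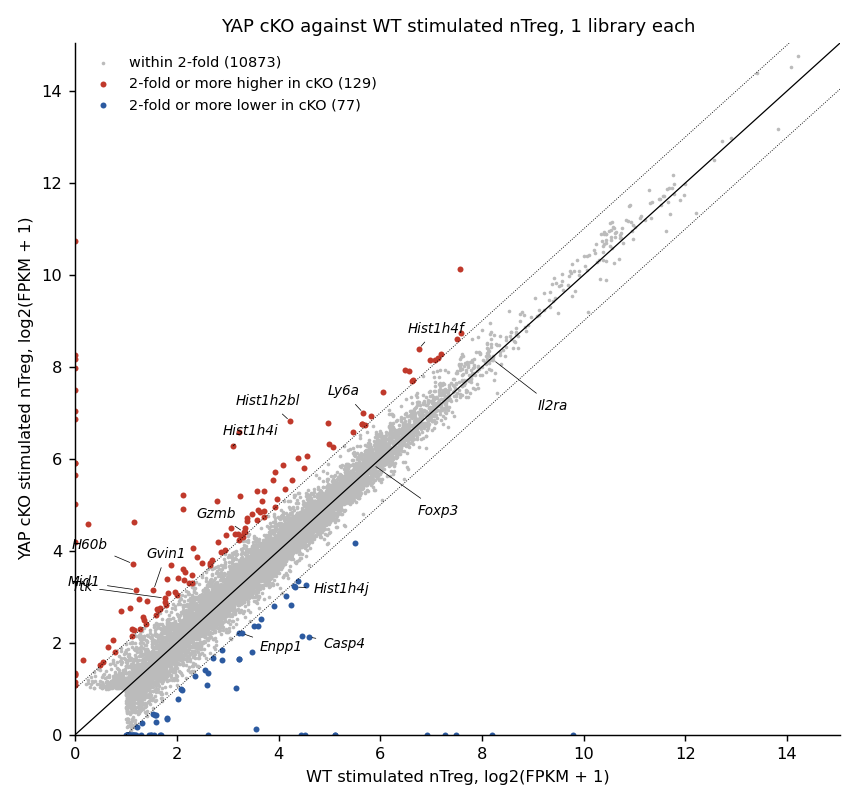
Each point is 1 gene, with its log2(FPKM + 1) in the WT stimulated nTreg library on the x axis and in the YAP cKO library on the y axis; the solid line marks equal levels and the dotted lines 2-fold. The 129 genes at least 2-fold higher in the cKO library lie across the range of abundance, and most of the 77 lower genes lie near the bottom of it, while Foxp3 and Il2ra sit on the diagonal.

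Genes of cell division were higher in the cKO library almost throughout. Of 62 measured genes of mitosis and the spindle, 59 were higher in cKO, where 55.2% of all genes were higher and 44.8% lower, and their median log2 difference was 0.60 beside 0.04 for all genes. By the 1.5-fold threshold 33 of the 62 were higher and 0 lower, where 5.11% and 2.92% of all genes were. At 2-fold there were 3 of 62: Ttk, Cdc20 and Kif4. The differences are small for single genes and run one way across the list.

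Ttk encodes the kinase MPS1, which starts the spindle checkpoint. It was at 0.0509 and 0.120 FPKM in the naive pair (WT first), 0.203 and 0.858 in the fresh pair, and 2.40 and 6.85 after stimulation. Kif4, a kinesin of the anaphase spindle, was at 0.0570 and 0.265, 0.822 and 1.72, and 3.89 and 8.87 FPKM in the same order. Both genes were highest in the stimulated pair and higher in cKO in each of the 3 pairs, with log2 differences of 1.21 and 1.01 after stimulation. Their naive levels lie far under 1 FPKM, so the direction there rests on few fragments. In the naive libraries 1 FPKM on a 2 kb transcript is about 14.5 fragments in WT and 17.1 in cKO. The Kif4 ratio was 2.28 with a counting interval of 1.87 to 2.80. Mki67, the proliferation marker Ki-67, was at 11.2 FPKM in WT and 15.9 in cKO in the fresh pair, and at 40.5 and 58.6 after stimulation. The most abundant gene of the list, H2afz, a histone variant gene, was at 439 and 582 FPKM.

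Replication genes differed less but as uniformly. Of 50 measured genes of DNA replication 48 were higher in cKO, with a median of 0.51, 14 of them past 1.5-fold and 0 past 2-fold. Orc1, the origin recognition subunit made late in G1, was at 0.729 and 1.04 FPKM in the naive pair, 0.841 and 0.851 in the fresh pair, and 2.03 and 4.95 after stimulation. It lay level between genotypes in the fresh pair and apart after stimulation, at a ratio of 2.44 with a counting interval of 1.71 to 3.53. Chaf1a, which encodes the large subunit of the histone chaperone CAF-1, was at 4.44 in WT and 8.76 FPKM in cKO, and Tk1, thymidine kinase, at 7.06 and 13.5. Mcm6, a subunit of the replicative helicase and the most abundant of the list, was at 187 and 260.4 FPKM.

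The genes that govern entry into the cycle did not move as one. Of 27 measured cyclins, CDK inhibitors and E2F genes 22 were higher and 5 lower in cKO, with a median of 0.22, and 1 passed 2-fold. That gene was Cdkn3, a phosphatase that acts on cyclin-dependent kinases, at 2.46 FPKM in WT and 6.07 in cKO. Cdkn2d, the inhibitor p19INK4D, was at 54.4 and 73.9 FPKM in the naive pair, 32.1 and 42.5 in the fresh pair, and 6.6 and 13.2 after stimulation. It was lowest in the stimulated pair and higher in cKO in all 3 pairs. Cdkn1b, the inhibitor p27, was lower in cKO after stimulation, at 76.5 against 92.2 FPKM, a ratio of 0.829 with a counting interval of 0.773 to 0.890.

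The promoters of the mitotic genes are shown because these members differed together and share letters that cell cycle promoters are known for. The cell cycle homology region (CHR), TTTGAA, is bound by the DREAM and MuvB complexes, and the CCAAT box by NF-Y. Counting matches on both strands in RefSeq promoters (GRCm38.p6, from 250 bases before to 50 after a gene's start), 69.6% of 56 promoters of the 53 matched mitosis genes held TTTGAA, against 17.9% of 32851 promoters of all genes. CCAAT was in 75% of them, against 37.4% of all. The letters are a description of these windows and not a measure of binding. Both sequences run 5′ to 3′ in the direction of the gene, with matches to TTTGAA and CCAAT on either strand in capitals.
Ttk (chr9:83834439-83834738, plus strand): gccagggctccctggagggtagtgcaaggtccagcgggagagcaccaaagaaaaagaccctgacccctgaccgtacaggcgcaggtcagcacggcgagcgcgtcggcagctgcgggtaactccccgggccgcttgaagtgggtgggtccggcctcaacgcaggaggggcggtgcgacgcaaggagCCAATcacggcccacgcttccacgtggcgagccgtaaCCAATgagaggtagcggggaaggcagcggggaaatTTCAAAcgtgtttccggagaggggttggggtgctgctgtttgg
Kif4 (chrX:100625815-100626114, plus strand): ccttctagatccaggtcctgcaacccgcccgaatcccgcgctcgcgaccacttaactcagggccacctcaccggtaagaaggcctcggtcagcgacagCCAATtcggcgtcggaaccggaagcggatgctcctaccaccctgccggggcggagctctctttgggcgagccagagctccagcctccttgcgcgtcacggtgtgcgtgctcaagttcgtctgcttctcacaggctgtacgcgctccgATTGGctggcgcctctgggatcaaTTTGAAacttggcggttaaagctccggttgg
In Ttk the CHR starts 7 bases after the gene's start and the CCAAT boxes 65 and 28 bases before it. In Kif4 the CHR starts 19 bases after the start and the CCAAT boxes 152 and 5 bases before it.

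Of the gene lists, histones held the most 2-fold differences, 23 of the 206, beside 27 short RNA features that belong to no list. Of 57 measured replication-dependent histone genes, whose mRNA is made in S phase and carries a stem loop in place of a poly(A) tail, 53 were higher in cKO. A total of 22 were at least 2-fold higher and 1 at least 2-fold lower, and 40 passed 1.5-fold upwards, beside 1.16%, 0.695% and 5.11% of all genes. Their median log2 difference was 0.85, and their summed level was 3209.9 FPKM in WT and 5909.4 in cKO. Libraries made after depletion of ribosomal RNA, as here, keep such RNA without a poly(A) tail. The largest group of 2-fold differences by chromosome was on chromosome 13, which holds the main histone cluster, with 26 of the 129 higher genes. Of its 447 genes compared 6.49% were 2-fold apart in either direction, beside 1.86% of all genes, and their median log2 difference was -0.01.

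Hist1h4i, an H4 gene (chromosome 13, 22040960 to 22041362, mm10), was at 8.98 and 20.1 FPKM in the naive pair (WT first), 9.25 and 43.3 in the fresh pair, and 7.60 and 76.7 after stimulation. WT was level over the 3 populations, and cKO was higher in each. The ratio after stimulation was 10.1, with a counting interval of 7.24 to 14.4. Hist1h2bl, an H2B gene, was at 1.5 and 9.37, 9.06 and 33.8, and 17.7 and 112 FPKM in the same order. Hist1h2bh, another H2B gene, was at 17.8 and 17.0, 26.3 and 37.3, and 30.5 and 109 FPKM, so that its genotypes were level in naive cells and furthest apart after stimulation. Hist1h2ab, an H2A gene, was at 14.2 and 51.7 FPKM after stimulation.

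Not every histone gene lay on that side. Hist1h4j was at 8.22 and 1.56 FPKM in the naive pair, 8.41 and 7.22 in the fresh pair, and 19.1 and 8.26 after stimulation, a log2 difference of -1.11. Hist1h4d, the most abundant member, was at 428 in WT and 571 FPKM in cKO, a log2 difference of 0.42. Coding sequences within each histone class are near copies, so the split of fragments among single members, Hist1h4i and Hist1h4j among them, is uncertain, while the sum over the class is less so. Histone transcripts are also short and rich in GC, at a median of 536.5 nt and 57.5% GC, beside 2810 nt and 49.9% for all genes with a length. With each gene centred on others of its length and GC, the histone median was 0.52, with 13 members 2-fold higher and 3 lower. The corresponding medians were 0.60 for mitosis and 0.47 for replication.

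An octamer, ATTTGCAT, the letters read by OCT1 in H2B promoters, is shown because some of the histone promoters hold it. It was in 25% of 52 histone promoters, 13 of them, against 1.74% of all promoters on either strand. Log2 differences of the genes that hold it ran from -0.54 (Hist1h2ba, at 1.04 FPKM in WT) to 1.79 (Hist1h2ab). These 2 H2B promoters were chosen as examples that hold it, after their values were seen, with octamer and CCAAT matches in capitals.
Hist1h2bk (H2bc12, chr13:22035571-22035870, plus strand): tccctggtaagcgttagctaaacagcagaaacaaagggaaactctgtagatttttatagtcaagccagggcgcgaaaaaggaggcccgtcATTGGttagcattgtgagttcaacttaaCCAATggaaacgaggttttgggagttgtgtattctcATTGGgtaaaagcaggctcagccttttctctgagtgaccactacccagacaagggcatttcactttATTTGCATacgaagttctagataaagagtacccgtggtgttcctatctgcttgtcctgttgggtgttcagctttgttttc
Hist1h2be (H2bc6, chr13:23585921-23586220, minus strand): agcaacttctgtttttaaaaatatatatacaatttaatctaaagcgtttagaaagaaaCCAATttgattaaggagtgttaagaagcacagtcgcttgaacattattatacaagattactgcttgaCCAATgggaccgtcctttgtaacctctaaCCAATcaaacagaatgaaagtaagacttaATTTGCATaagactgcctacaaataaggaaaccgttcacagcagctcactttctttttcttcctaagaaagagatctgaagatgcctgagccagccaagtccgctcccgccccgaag
The octamer starts 30 bases before the start of Hist1h2bk and 67 bases before that of Hist1h2be, whose window is 1 of 2 listed for the gene. Hist1h2bk was at 18.1 FPKM in WT and 45.5 in cKO after stimulation, and Hist1h2be at 145 and 312.

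**Figure D2:**
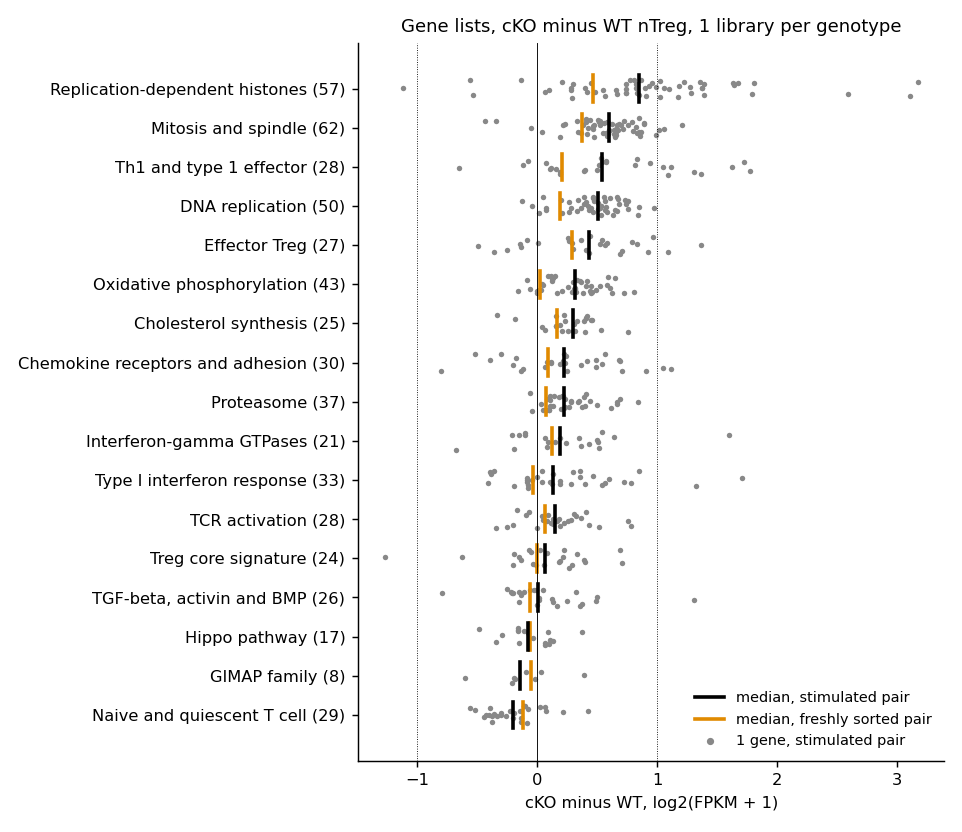
Each grey point is 1 gene, placed by its cKO minus WT difference of log2(FPKM + 1) in the stimulated pair, with the number of measured genes of each list in brackets; black bars are list medians in the stimulated pair, orange bars in the freshly sorted pair, and dotted lines mark 2-fold. Histone, mitosis, Th1 and replication genes lie to the right, with medians of 0.85, 0.60, 0.54 and 0.51, and the naive T cell list lies to the left at -0.20.

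Genes of type 1 effector cells were the next group. Of 28 measured Th1 and type 1 effector genes 25 were higher in cKO, 8 of them at least 2-fold and 11 at least 1.5-fold, with a median of 0.54. Of all genes 55.2% were higher, 1.16% at least 2-fold and 5.11% at least 1.5-fold. Gzmb, the cytotoxic protease granzyme B, was at 0 and 0.352 FPKM in the naive pair (WT first), 9.80 and 42.9 in the fresh pair, and 8.94 and 20.2 after stimulation. The gap was wider before stimulation than after it, at log2 differences of 2.02 and 1.09. Cxcr6, the receptor for CXCL16 on effector T cells, was at 2.63 and 2.86, 14.9 and 20.4, and 55.65 and 122 FPKM in the same order. It was nearly level in naive cells and highest in stimulated cKO cells, at a ratio of 2.19 with a counting interval of 2.01 to 2.39. Stat4, which relays IL-12 and was named here after its value was seen, was the largest exception: it was at 34.7 FPKM in WT and 21.8 in cKO, a log2 difference of -0.65.

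The Th1 master factor and its usual product moved with stimulation in different ways. Tbx21, which encodes T-bet, was at 0.707 and 0.598 FPKM in the naive pair, 2.71 and 6.74 in the fresh pair, and 3.49 and 10.6 after stimulation. Ifng was at 1.5 and 0.954, 17.7 and 33.2, and 4.02 and 15.6 FPKM. Tbx21 was a little higher after stimulation than before in both genotypes, whereas Ifng was lower after it in both, and cKO exceeded WT at each step in nTregs. In each genotype the deposited FPKM of Ifng, Gzmb and Ccr2 were lower in the stimulated than in the freshly sorted library. The WT levels of Gzmb lie close together and the FPKM sums of these libraries differ, so its direction in WT is not read here. Ccr2, a monocyte chemokine receptor also carried by effector T cells, was at 23.3 and 50.2 FPKM in the fresh pair and at 14.0 and 27.1 after stimulation.

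Markers of NK and cytotoxic cells were measured beside these genes. The summed level of the 12 listed was 25.1 FPKM in WT and 70.2 in cKO, of which Nkg7 alone made 19.9 and 63.7. Nkg7 is also a gene of cytotoxic T cells. Only Nkg7, Gzma, Prf1 and Eomes reached 1 FPKM in the pair. The other 8, NK receptors and the adaptor Tyrobp, were under 1 FPKM in both libraries, 4 of them lower and 3 higher in cKO. Ncr1 was at 0.104 FPKM in WT and 0.0803 in cKO, Klrb1c at 0.218 and 0.0842, and Klra8 at 0 in both. Klrd1 was at 0.194 and 0.600, Klre1 at 0 and 0.281, and Klrc1 at 0.235 and 0.343. Cd8a was at 0.362 and 0.282. The share of the Th1 values that comes from cells other than CD4 T cells was not tested.

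Effector Treg genes leaned the same way, and some are shared with the Th1 list. Of 27 measured, 21 were higher in cKO, 2 at least 2-fold and 8 at least 1.5-fold, with a median of 0.43. The shares over all genes were 55.2%, 1.16% and 5.11%. Itgae, the CD103 integrin chain that binds E-cadherin and a member of the core Treg list as well, was at 0.355 and 0.570 FPKM in the naive pair, 44.0 and 61.3 in the fresh pair, and 74.7 and 123 after stimulation. Havcr2, the checkpoint receptor TIM-3, was at 3.04 in WT and 6.2 FPKM in cKO, and Lag3, another, at 4.97 and 10.7. These were the furthest apart of 15 measured genes of the checkpoint list, which holds ligands and other genes beside receptors. Of the 15, 10 were higher and 5 lower in cKO, with a median of 0.17 and 8 higher under equal FPKM sums. Icos, the most abundant of the effector Treg genes, was at 131 and 157.

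The core Treg signature had a median of 0.07, with 14 of 24 measured genes higher, 10 lower and 1 past 2-fold. With equal FPKM sums 11 of the 24 were higher and the median was -0.08. Itgae, given above, is in this list too, at a log2 difference of 0.71. Ctla4, an inhibitory receptor, was at 42.2 and 34.7 FPKM in the naive pair, 663 and 604 in the fresh pair, and 285 and 283 after stimulation. Ikzf2, which encodes Helios, was at 122 in WT and 127 in cKO after stimulation, and Ikzf4, which encodes Eos, at 25.7 and 27.3. The member past 2-fold was Gpr34, a lysophospholipid receptor, at 2.25 and 1.08, 14.2 and 8.28, and 22.1 and 8.57 FPKM over the 3 pairs. It was lower in cKO in each. Capg, an actin-capping protein and the most abundant member, was at 367 FPKM in WT and 594 in cKO. Penk, which encodes the opioid precursor proenkephalin, was at 30.1 and 31.1 in the fresh pair and at 16.6 and 10.4 after stimulation.

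Cytokines were divided. Of 22 measured, 16 were higher and 6 lower in cKO, with a median of 0.22, and 4 were at least 2-fold higher. The lean depends on the scaling and the minimum: with equal FPKM sums 12 of 23 were higher, at a median of 0.00339, and with no minimum 18 of 35, at 0.00959. Besides Ifng, Ccl3 and Ccl4, the gene past 2-fold was Lif, an IL-6 family cytokine. Lif was at 0.269 and 0.114 FPKM in the naive pair, 1.42 and 1.99 in the fresh pair, and 5.30 and 11.9 after stimulation. Ltb, lymphotoxin beta, was the most abundant at 160.35 and 179 FPKM. Among 16 measured Th2, Th17 and Tfh genes the median was 0.06, and 1 was at least 2-fold higher: Crtam, an adhesion molecule of activated T cells, at 2.20 in WT and 5.68 FPKM in cKO.

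**Figure D3:**
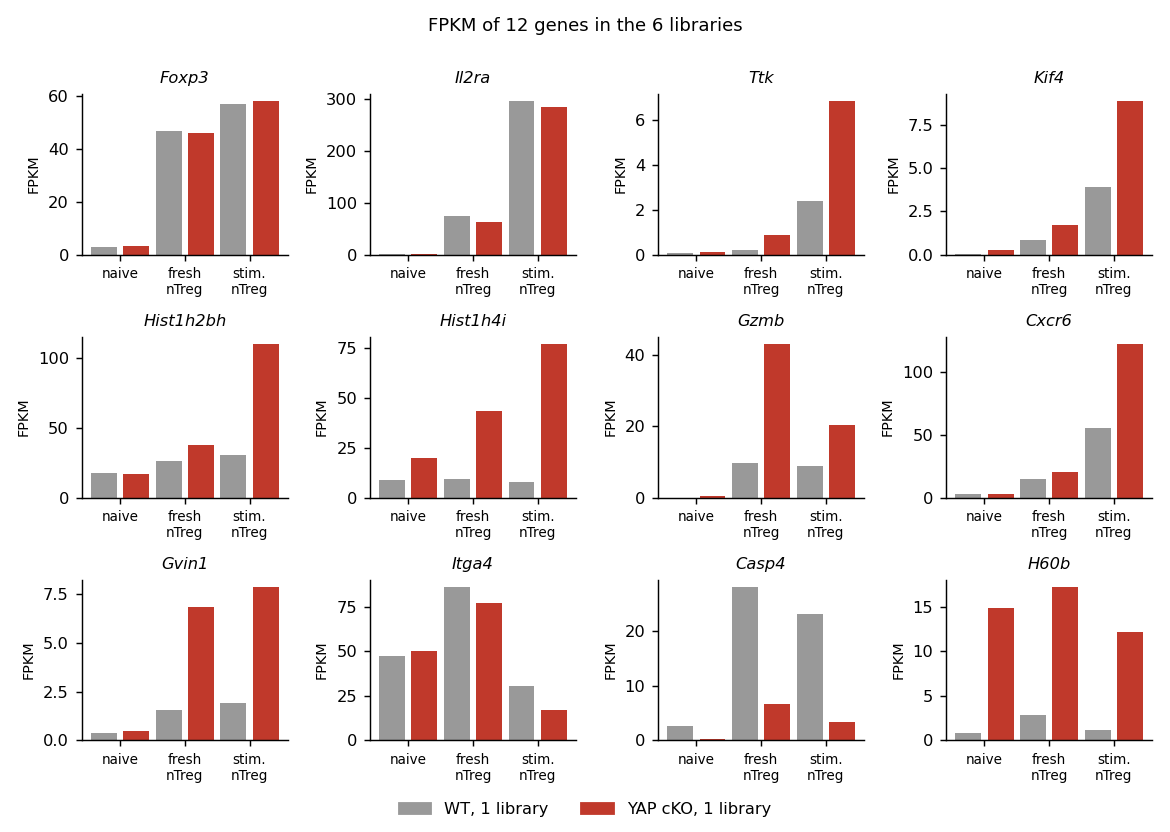
FPKM of 12 genes in each of the 6 libraries, 1 bar a library, grey for WT and red for YAP cKO; the y axes start at 0 and differ between panels. Foxp3 and Il2ra are level between genotypes, Ttk, Kif4, Hist1h2bh and Cxcr6 are furthest apart after stimulation, Gzmb is furthest apart before it, and Hist1h4i, Casp4 and H60b differ in all 3 pairs.

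Genes that keep T cells in circulation and at rest were lower in cKO. Of 29 measured naive and quiescence genes 24 were lower, 0 by 1.5-fold, with a median of -0.20. Lef1, a transcription factor of naive T cells that acts with TCF1, was at 229 and 224 FPKM in the naive pair, 75.25 and 69.2 in the fresh pair, and 63.1 and 46.1 after stimulation. It was highest in naive cells and lower in cKO in each pair, furthest apart after stimulation. Klf3, a repressor of the Kruppel family, was at 40.0 and 37.4 FPKM in the fresh pair and 23.7 and 15.7 after stimulation. Slfn2, a quiescence gene that is also induced by interferon, was an exception at 103 in WT and 138 in cKO.

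Trafficking receptors lay on both sides. Of 30 measured chemokine receptors and adhesion genes 22 were higher and 8 lower in cKO, with 2 at least 2-fold higher, Cxcr6 among them. With equal FPKM sums 18 of the 30 were higher. Ccr8, a receptor of skin and tissue Tregs, was at 6.97 and 6.69 FPKM in the naive pair, 41.5 and 43.8 in the fresh pair, and 75.1 and 122 after stimulation. It was level between genotypes before stimulation and apart after it. Itga4, the integrin chain of VLA-4, was at 47.2 and 50.4, 85.9 and 77.2, and 30.4 and 17.0 FPKM, and was the lowest of the list at -0.80, a ratio of 0.561 with a counting interval of 0.524 to 0.600. The GIMAP GTPases, which support the survival of resting lymphocytes, were lower in cKO for 6 of 8 genes, led by Gimap7 at 29.9 and 19.4 FPKM. Gimap5 was an exception at 12.3 and 16.4.

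Interferon-induced genes went in both directions. Of 33 measured type I interferon genes 21 were higher and 12 lower in cKO, with a median of 0.14, and 17 were higher with equal FPKM sums. The 2 past 2-fold, both higher, were Isg15 and Ly6a. Isg15 was at 11.3 and 23.9 FPKM in the naive pair, 15.5 and 22.4 in the fresh pair, and 1.38 and 6.78 after stimulation. The stimulated levels stand on about 7.18 and 45.5 fragments, with a ratio interval of 2.28 to 13.3. Ly6a, the surface protein Sca-1, was at 81.8 and 137 FPKM in the naive pair, 81.4 and 118 in the fresh pair, and 49.9 and 126 after stimulation. Part of that level comes from transcripts named from the reference, and with deposited symbols alone its log2 difference was 0.67. Bst2, the virion-retaining protein tetherin, was level in the fresh pair at 54.2 and 53.7 FPKM and at 26.9 and 47.2 after stimulation. Ifit3 was at 17.7 and 34.7, 15.8 and 19.4, and 9.54 and 18 FPKM over the 3 pairs, so that it was higher in cKO in each.

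Interferon-gamma induced GTPases and their partners had a median of 0.19, with 15 of 21 higher. Gvin1, a giant interferon-inducible GTPase, was at 0.394 and 0.497 FPKM in the naive pair, 1.54 and 6.85 in the fresh pair, and 1.91 and 7.85 after stimulation. It stood apart in both nTreg pairs and not in naive cells. Gm4070 (chromosome 7, 105895118 to 105953967), near Gvin1 (106156535 to 106215340) and named after its value was seen, lay the other way. It was at 0.456 and 0.576, 8.67 and 0.0530, and 10.8 and 0.0866 FPKM over the same pairs. Whether both genes share fragments was not tested. Gbp2, a guanylate-binding protein and the most abundant of the list, was at 286 and 417. Cxcl10 lay the other way at 2.02 and 0.895 FPKM, on about 15.2 and 8.69 fragments, with a ratio interval of 0.179 to 1.13 that spans 1. Ifng itself was higher in the cKO library, as given above, and its part in these levels was not tested.

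The Isg15 promoter is shown because it carries the letters of the interferon-stimulated response element, which interferon-activated STAT and IRF complexes bind. The search was for GAAA, any 2 bases and GAAA again, on both strands. It was in 51.6% of 31 promoters of the type I interferon list and in 3.44% of all. The 3 overlapping matches of Isg15, in capitals, start 78, 72 and 66 bases before the gene's start.
Isg15 (chr4:156200769-156201068, minus strand): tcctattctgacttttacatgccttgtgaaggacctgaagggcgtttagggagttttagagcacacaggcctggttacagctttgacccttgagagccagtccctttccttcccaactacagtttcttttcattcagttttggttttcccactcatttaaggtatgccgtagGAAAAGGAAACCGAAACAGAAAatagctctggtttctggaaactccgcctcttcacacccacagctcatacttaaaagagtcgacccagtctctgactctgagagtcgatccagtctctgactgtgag

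Genes of protein turnover and respiration were higher in cKO by small amounts. Of 37 measured proteasome genes 35 were higher, with a median of 0.22, and of 43 genes of oxidative phosphorylation 38 were higher, with a median of 0.31. With equal FPKM sums 23 of the 37 and 28 of the 43 were higher. The respiration median was 0.02 in the fresh pair. Psmb5, a catalytic subunit of the proteasome core, was at 39.3 and 36.0 FPKM in the naive pair, 39.5 and 38.8 in the fresh pair, and 36.1 and 65.5 after stimulation. Psmb9, its relative in the immunoproteasome, was at 77.3 and 97.2, 81.7 and 90.1, and 59.4 and 94.6. Ndufa2, a subunit of respiratory complex I, was at 106 and 105, 86.1 and 87.2, and 41.4 and 73.2 FPKM. In deposited FPKM it was lower than in fresh cells in both genotypes and more so in WT, without scaling for the lower FPKM sums after stimulation. Uqcrq, of complex III, was at 30.1 and 50.4 after stimulation.

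These lists hold short transcripts, and differences in the stimulated pair varied with length and GC over all genes. The median log2 difference was 0.23 for 221 genes under 600 nt and -0.02 for 3104 genes over 4000 nt. It was -0.08 in the 2720 genes of lowest GC and 0.16 in the 2719 of highest GC, where the fresh pair had 0.00 and 0.01. Among 86 genes both shortest and richest in GC the median was 0.53. Centred on length and GC, respiration had a median of 0.17 and the proteasome 0.14, with 32 of 43 and 33 of 37 genes still above 0. The medians of Th1 and effector Treg genes became 0.47 and 0.39, and that of the naive list was -0.20. RNAs kept in the nucleus also differed: the 4 measured were lower in cKO, with a median of -0.38, and -0.19 in the fresh pair. Malat1 was at 1650.2 and 1295 FPKM after stimulation, Neat1 at 47.0 and 40.2, and Kcnq1ot1 at 8.70 and 6.31, and Xist is given below. The part of transcript length, GC content and nuclear RNA in the differences of the lists was not tested further.

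**Figure D4:**
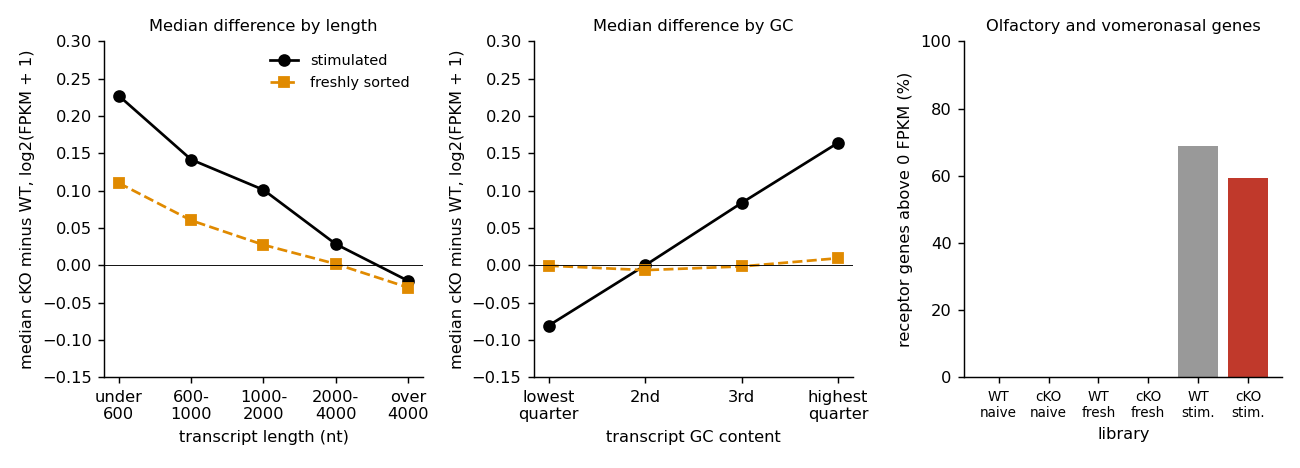
Left and middle, the median cKO minus WT difference of log2(FPKM + 1) over genes in bands of transcript length (nt) and in 4 bands of GC content, black for the stimulated and orange for the freshly sorted pair; right, the percent of 1245 olfactory and vomeronasal receptor genes above 0 FPKM in each library, 0 in the first 4 by the choice of those genes. The stimulated medians run from 0.23 in the shortest band to -0.02 in the longest, and the receptor genes reach 68.9% in the WT and 59.2% in the cKO stimulated library.

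Other metabolic lists differed by less. Glycolysis genes were higher in cKO for 22 of 26, with a median of 0.24, and Tpi1, triose phosphate isomerase, was at 43.6 in WT and 69.6 FPKM in cKO. Cholesterol synthesis had 23 of 25 higher and a median of 0.30. Genes of the unfolded protein response had a median of 0.15 after stimulation and -0.05 before. In that list Sdf2l1, an endoplasmic reticulum chaperone partner, was at 8.81 and 8.14 FPKM in the fresh pair and 13.3 and 23.5 in stimulated ones, and Xbp1, the transcription factor of the response, at 45.7 and 39.1 and then 78.5 and 113. Both lay below WT in fresh cKO cells and above it after stimulation. Anxa2, a membrane-binding annexin of the hypoxia list, was at 5.71 and 12.6 FPKM in the naive pair, 32.5 and 63.5 in the fresh pair, and 22.6 and 65.7 after stimulation, a log2 difference of 1.5.

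Genes induced by T cell receptor activation differed by little. Of 28 measured genes induced by the T cell receptor 22 were higher in cKO, 0 past 2-fold, with a median of 0.15 that was 0.06 once centred on length and GC. With equal FPKM sums 14 of the 28 were higher. Irf8, a transcription factor, was at 7.59 and 10.4 FPKM in the fresh pair and 43.1 and 74.7 after stimulation. Spry1, an inhibitor of Ras signalling, was at 20.3 and 35.1. The IL-2 and STAT5 list had a median of 0.05, with 16 of 25 higher. Of 24 NF-kappaB genes 17 were higher, and Relb, a subunit of the alternative pathway, was at 21.6 and 23.4 FPKM in the fresh pair and 7.55 and 14.3 after stimulation.

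The pathway of the deleted gene showed little. Of 28 Hippo genes 17 were measured, 7 higher and 10 lower in cKO, with 0 past 1.5-fold and a median of -0.08. With equal FPKM sums 2 of the 17 were higher and the median was -0.23. Stk3, the kinase MST2, was at 3.83 and 2.60 FPKM in the naive pair, 7.31 and 5.17 in the fresh pair, and 6.45 and 4.34 after stimulation, and was lower in cKO in each pair. Lats2, a kinase that inhibits YAP and is itself a YAP target, was at 16.1 in WT and 12.5 in cKO. Limd1, which restrains LATS, was at 15.1 and 19.8. Mob1a, a LATS partner and the most abundant member, was at 97.6 and 92.4. Among the partner factors Tead1 was at 1.12 and 1.22 FPKM and Tead2 at 1.24 and 1.41. Under 1 FPKM were Tead3 at 0.411 and 0.182, Tead4 at 0.241 and 0.0372, and the YAP paralogue Wwtr1 at 0.208 and 0.138.

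Of 24 YAP-TEAD target genes only 9 reached 1 FPKM, 6 of them higher in cKO, with a median of 0.10 and 0 past 2-fold. The classical targets Ctgf, Cyr61 and Ankrd1, named after their values were seen, were at 0.240 and 0.232, 0.289 and 0.390, and 0.0841 and 0.0650 FPKM in WT and cKO. Axl, a receptor tyrosine kinase, was at 9.91 and 10.1 FPKM in the fresh pair and 13.5 and 22.2 after stimulation. Birc5, survivin, which is also a mitotic gene, was at 15.1 and 25.3. Nt5e, the ectonucleotidase CD73, was at 404 and 461.

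TGF-beta, activin and BMP genes were balanced, with 13 of 26 higher and a median of 0.01, and 9 of 26 with equal FPKM sums. The receptor Tgfbr1 was the most abundant at 17.8 and 19.3 FPKM in the naive pair, 48.9 and 56.3 in the fresh pair, and 128 and 166 after stimulation. Smad3, which carries the signal to the nucleus, was at 16.3 and 20.7. Itgb8, the integrin chain that releases active TGF-beta, was at 14.2 and 12.7 in the fresh pair and 16 and 22.9 after stimulation. The activin receptor gene Acvr1c was at 3.29 in WT and 1.47 FPKM in cKO, on about 197 and 89.6 fragments. Fst, the activin antagonist, was at 0.680 and 3.15 on about 5.20 and 31.2 fragments, and so passed 1 FPKM in the cKO library alone. The receptor Acvr1 was at 1.23 and 2.15.

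A set of genes differed between the cKO and WT libraries of every population, stimulated or not. Of the 129 higher genes 17 were at least 2-fold higher in all 3 pairs, and of the 77 lower genes 7 were lower in all 3, where the naive pair alone had 0.663% of its genes 2-fold higher and 0.49% lower. H60b, a ligand of the NKG2D receptor (chromosome 10, 22273474 to 22288849, mm10), was at 0.831 and 14.8 FPKM in the naive pair, 2.82 and 17.2 in the fresh pair, and 1.21 and 12.1 after stimulation. Mid1, an X-linked gene for a microtubule-associated ubiquitin ligase, was at 2.40 and 8.72, 3.16 and 10.3, and 1.30 and 7.88. Rab6b, a Rab GTPase, lay the other way at 4.54 and 1.01, 7.52 and 1.59, and 8.33 and 2.15. These 3 genes kept their side and much of their size in the stimulated pair. The labels do not say whether the mice were littermates, and genotype and any other difference between the mice cannot be told apart.

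The inflammatory caspase genes of chromosome 9 lie near the deleted gene, and Casp4 is 1 of the 7 lower in all 3 pairs. Casp4, caspase-11 of the non-canonical inflammasome, starts 2.62 Mb from Yap1, and was at 2.57 and 0.348 FPKM in the naive pair, 28.0 and 6.73 in the fresh pair, and 23.1 and 3.37 after stimulation. Its neighbour Casp1 was at 4.25 and 0.736, 28.7 and 19.5, and 18 and 6.10, lower in cKO in each pair but by less than 2-fold in fresh cells. The other 10 genes measured within 5 Mb of Yap1 had log2 differences from -0.52 (Kbtbd3) to 0.22 (Dcun1d5). Elsewhere in the list of inflammatory caspases and sensors, Aim2, a DNA sensor, was at 34.7 and 26.8, and the adaptor Pycard at 13.6 and 20.6. Of the 8 measured, 7 were lower in cKO, where 44.8% of all genes were. Casp4 and Casp1 were the furthest apart, at log2 differences of -2.46 and -1.42. The other lower members ran from -0.36 (Aim2) to -0.00453 (Gsdmd), so that Gsdmd was level. The ratio interval of Nlrp1a, 0.467 to 1.28, spans 1. Pycard alone was higher, at 0.57.

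**Figure D5:**
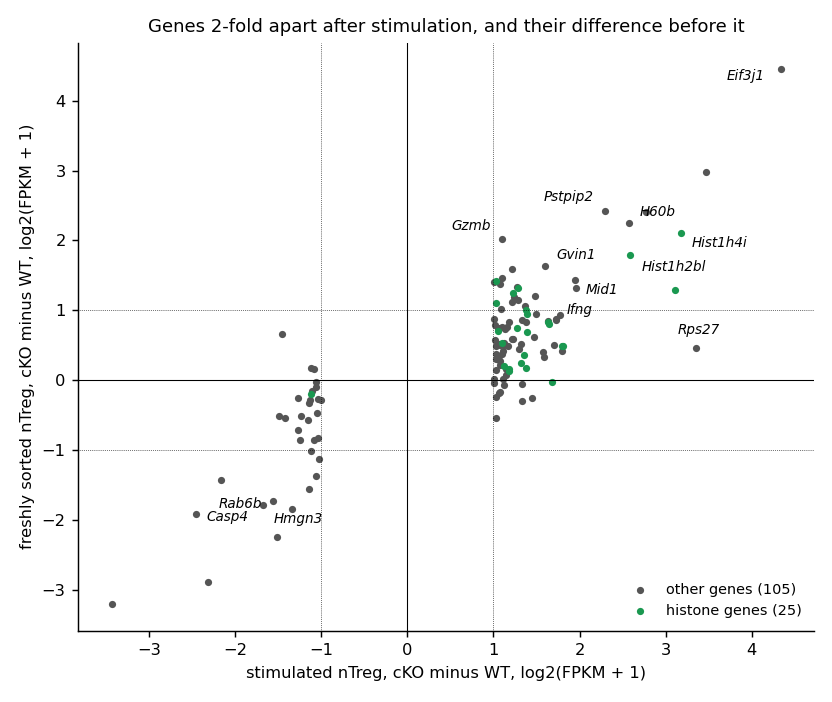
Each point is 1 of 130 genes at least 2-fold apart in stimulated nTregs that had 1 or more FPKM in the fresh pair, short features left out; the x axis is the cKO minus WT difference of log2(FPKM + 1) after stimulation and the y axis that in freshly sorted nTregs, with 25 histone genes in green. H60b, Casp4 and Rab6b keep their difference, while many points lie near 0 on the y axis, within 2-fold before stimulation.

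Most of the 2-fold differences of the stimulated pair were not 2-fold in the others. Of the 129 higher genes 110 were measured in the fresh pair, where 92 lay on the same side and 29 were also 2-fold higher. Those 29 are 22.5% of the 129 and 42.0% of the 69 genes (0.635%) that were 2-fold higher in the fresh pair. Of the 77 lower genes 36 were measured in the fresh pair, 32 on the same side and 14 at 2-fold, which is 18.2% of the 77 and 34.1% of the 41 (0.377%) of the fresh pair. A total of 93 of the 129 higher and 60 of the 77 lower genes passed 2-fold in the stimulated pair alone. Whether the genotypes respond differently was not tested.

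Among genes apart after stimulation and not before, Slc37a2, a sugar phosphate transporter, was at 1.04 and 1.71 FPKM in the fresh pair and 2.70 and 11.9 in stimulated ones. Gatm, the enzyme that starts creatine synthesis, was at 0.0475 and 0 in the fresh pair and 0.858 and 5.49 after stimulation, so that it passed 1 FPKM in the cKO library alone. On the lower side, Enpp1, an ectonucleotide pyrophosphatase, was at 7.68 and 7.16 in the fresh pair and 8.68 and 3.62 after stimulation. Lilrb4, an inhibitory immunoglobulin-like receptor, was at 16.1 and 13.1 and then 11.6 and 4.74. Nudt7, a peroxisomal hydrolase of coenzyme A, was at 8.12 and 5.16 and then 10.5 and 4.15. The last 3 were near level or modestly lower in fresh cKO cells and more than 2-fold lower after stimulation.

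Some of the largest differences lie in genes that share sequence with another gene or are linked to sex. Eif3j1 was at 0.182 and 0.154 FPKM in the naive pair, 0.145 and 24.0 in the fresh pair, and 0.187 and 23.1 after stimulation. A near-identical copy of it exists. Rps27 was at 8.35 and 94.4 FPKM after stimulation, whereas its copy Rps27rt was at 6739.8 and 7647 and the sum of both differed by 0.20 on the log2 scale. H2-T10, a nonclassical MHC gene, shares sequence with its neighbours. It was at 31.8 and 89.5, 25.4 and 65.0, and 8.455 and 35.7 FPKM over the 3 pairs. The split of fragments among such genes is uncertain, and so are the values of these 3. A copy's level was compared for Rps27 alone. The part of shared sequence in the Eif3j1 and H2-T10 differences was not tested. Xist, the RNA that coats the inactive X of female cells, was at 12.5 and 8.76 FPKM in the naive pair, 30.0 and 3.21 in the fresh pair, and 21.1 and 3.43 after stimulation. The Y-linked Ddx3y was at 33.2 and 45.5 and Eif2s3y at 60.8 and 71.1 in the stimulated pair, so Xist and Y-linked RNA were both present in both libraries. The part of the sex of the mice in the other differences was not tested.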

How the data were processed

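Total RNA of sorted CD4 T cells was measured by strand-specific sequencing in 6 libraries, 1 for each of 2 genotypes in 3 populations. Per the labels' protocols, ribosomal RNA was depleted from 322 ng of RNA and libraries were amplified over 12 PCR cycles. Per the submitters' processing notes, FastQC, TopHat, Cuffdiff, Cuffnorm and mm10 were used; versions are not given in the sources used here. Values were deposited by the authors as FPKM per RefSeq transcript, scaled with Cuffnorm; they carry no counts, so no count model was run. The columns with the abbreviation YKP were read as the cKO libraries, since the others are named WT.

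Each of 32547 transcripts was kept once, and FPKM were summed per deposited symbol. Of 3495 transcripts with a blank symbol, 3446 were named from RefSeq (GRCm38.p6) and 49 could not be. The pseudocount was 1, the minimum 1 FPKM in either library, and the threshold 2-fold, with no p-value. Fragments were estimated from the steps between low values, of which 81.2% to 84.0% were whole within 0.2. Lengths and GC content come from the reference transcripts. The calculation was checked on fragments simulated around the WT levels, with known folds larger than the threshold. The simulation held counting error only, without differences between mice, background, or trends with length and GC. It therefore checks the arithmetic alone.

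The genes compared and the 42 lists were chosen with earlier results of these data known. Named genes are the 15 highest and 15 lowest with 5 or more FPKM, leaving out short features, antigen receptor segments and predicted names, then in each list the 4 members furthest apart and the most abundant, and a fixed set of identity, Hippo and sex-linked genes. Some genes chosen by this rule are not reported here. Alternatives varied the pseudocount, the minimum, the scaling, the symbols, background subtraction, and centring on length and GC, the last 3 kinds chosen in part after seeing the data. Python 3.11.15, pandas 2.3.3, numpy 2.4.6 and scipy 1.17.1 were used.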

Additional observations from a re-analysis of the deposited data

Results flagged for a closer look

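A few short RNA features differed in opposite directions between the stimulated and the freshly sorted pair. Mir6363, a microRNA precursor, had a log2 difference of 6.86 in stimulated nTregs and -6.88 in fresh nTregs. Mir8104 was at 10.74 and -1.40, Snora28, a small nucleolar RNA, at 1.17 and -1.37, and Snora16a at -4.52 and 6.87. Each value compares 1 library with 1 library, and the difference between the pairs was not tested.

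Olfactory and vomeronasal receptor genes, which entered no comparison as a group, were above 0 FPKM for 68.9% of 1245 genes in the WT stimulated library and 59.2% in the cKO stimulated library. They were chosen for being listed at 0 in the other 4 libraries. Their origin was not tested.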

How the results depend on the processing

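Each group has 1 library, so no library could be left out and nothing here measures the spread between mice. No paired analysis was possible because each genotype has 1 library per population. Depth limits genes under about 5 FPKM, and the level of the receptor genes limits those under about 1. Of the 2-fold counts, 129 higher and 77 lower, a pseudocount of 0.1 gave 257 and 229, one of 0.5 gave 144 lower, a 1.5-fold threshold 566 and 323, a minimum of 5 FPKM 35 lower, leaving out short features and predicted names 41 lower, and centring on length and GC 70 higher; the others were within 1.5 times. In 344 of 385 list and setting combinations the median kept its sign and the share of genes higher stayed within the 95% binomial interval of the reported share, which does not hold a median near its value (T cell cytokines went from 0.221 to 0.00339). Of 2210 combinations for single genes 2197 were scored as the same and 13 as moved. That scoring did not count every change of sign: with equal FPKM sums genes near level, Foxp3 among them, fall below WT. Scaled to an equal FPKM sum, which lowers each cKO value to 0.897 of its level, the medians were Hippo -0.233, YAP-TEAD targets -0.0216, TGF-beta -0.147, core Treg -0.083, Th2, Th17 and Tfh -0.0843, IL-2 and STAT5 -0.099, TCR activation -0.00373, G1 and E2F 0.132, glycolysis 0.0878, hypoxia -0.0614, fatty acid synthesis -0.051, ATF4 0.0328, Myc -0.0704, oxidative phosphorylation 0.156, proteasome 0.069, unfolded protein response -0.000362, NF-kappaB -0.0479 and CD4 markers -0.00588. Equal sums without short features gave Hippo -0.203, TGF-beta -0.118, core Treg -0.0537, Th2, Th17 and Tfh -0.0561, IL-2 and STAT5 -0.0696, TCR activation 0.0254, hypoxia -0.0336, fatty acid synthesis -0.0215, ATF4 0.0624, Myc -0.0414, oxidative phosphorylation 0.186, proteasome 0.0985 and NF-kappaB -0.0195. The median ratio gave TGF-beta -0.0494 and IL-2 and STAT5 -0.000653. With no minimum the medians were YAP-TEAD targets -0.0177, TGF-beta -0.00846, Th2, Th17 and Tfh -0.0403 and snoRNA hosts 0.00531, and with 5 FPKM TGF-beta -0.0162 and snoRNA hosts 0.0106. Centred, ATF4 was 0.0605 and oxidative phosphorylation 0.169. The cause was not tested beyond what each scaling does by construction.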

Other observations

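Several abundant genes outside the lists were 2-fold higher in the cKO library and are named after their values were seen. Lgals1, galectin-1, was at 180.4 FPKM in WT and 389 in cKO stimulated nTregs, and S100a6, a calcium-binding protein, at 48.9 and 107. Crip1, a LIM protein, was at 139 and 293, Emp1, a membrane protein of the claudin fold, at 49.1 and 108, and Sgk1, a kinase downstream of PI3K, at 30.6 and 78.9. Plac8, a small cysteine-rich protein of effector lymphocytes, was at 12.1 and 38.2. Their families did not move as one: of 9 measured S100 genes 6 were higher and 3 lower, with a median log2 difference of 0.59, and of 6 galectins 4 were higher and 2 lower, with a median of 0.12. Of 12 measured tubulin genes 11 were higher in cKO, with a median log2 difference of 0.56, and 0.35 when centred on length and GC. In fresh nTregs the tubulin median was 0.06.

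Zinc finger genes, also grouped after their values were seen, lay the other way. Of 299 measured genes named Zfp and a number, 227 were lower in cKO, 75.9% beside 44.8% of all genes, with a median of -0.18 in the stimulated and -0.01 in the fresh pair. Their transcripts have a median length of 3333 nt and 45.1% GC, and centred on length and GC their median was -0.14, with 228 of 297 below 0. Cytosolic ribosomal proteins were higher in cKO for 76 of 96 genes, with a median of 0.22 that was 0.06 when centred. Mitochondrial ribosomal proteins were higher for 62 of 76, with medians of 0.18 and 0.09.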
